A study of Mus musculus with 31 samples.

Results

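The Kruppel-like factors and *Zbtb16* are read here in all 31 samples of a mouse melanoma study of glucocorticoid (GC) treatment. The 10 genes, *Klf2*, *Klf3*, *Klf4*, *Klf5*, *Klf6*, *Klf7*, *Klf9*, *Klf13*, *Klf15* and *Zbtb16*, were picked with earlier results from this dataset in hand, then looked up by gene symbol, and each matched 1 of the 39179 genes of the deposited table. Kruppel-like factors are zinc-finger proteins that bind CACCC and GC boxes and switch programs of growth and differentiation. *Klf2* keeps endothelium and resting T cells quiescent, *Klf4* and *Klf5* act in epithelial barrier and proliferation, *Klf3* recruits repressors, *Klf6* responds to injury, and *Klf7* is best known in neurons. *Klf9* and *Klf15* are direct targets of the glucocorticoid receptor (GR) in many tissues, *Klf13* is a close relative of *Klf9*, and *Zbtb16* encodes PLZF, a BTB zinc-finger repressor of innate-like lymphocytes that steroids induce in several cell types.

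The study used a line taken from a melanoma of C57BL/6 mice with an inducible *Nras* mutation, and a GR KO clone made from it with CRISPR. Both were grown as intradermal tumors in wild-type C57BL/6 mice and as cultures. Tumors received clobetasol propionate ointment (0.05%, 3 times weekly) or a plain cream, and cultures received clobetasol, at a dose the labels give as both 10 and 1 µM, or the solvent DMSO for 48 h. The groups were parental control tumors (n = 5), parental GC tumors (5), GR KO control tumors (5), GR KO GC tumors (5), parental DMSO cultures (3), parental GC cultures (2), GR KO DMSO cultures (3) and GR KO GC cultures (3). The age of the mice was not given. GR KO was a single clone, so loss of the receptor and other differences of that clone from the parental line cannot be told apart. Tumors were sequenced as whole tissue, in which host cells kept an intact receptor gene, and fewer cells of a type and less RNA per cell cannot be told apart in any value below.

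Libraries were 3′-end counts of 15528066 to 26386770 reads in tumors and 14441166 to 22463188 in cultures. Levels are counts relative to library size (CPM), scaled within tumors or within cultures, and 3 counts correspond to 0.112 to 0.220 CPM in tumors and 0.136 to 0.207 in cultures. A gene was called when the edgeR adjusted p was below 0.05 and the fold change was at least 1.5. Where groups are said not to overlap, this only describes the samples. The share of all genes without overlap was not counted, and groups as small as the cultures can separate by chance. *Klf15* was near absence: 23 of 31 samples held 0 counts, the highest held 5, and it passed the expression filter nowhere. Planned fits without the filter called it in no comparison (edgeR adjusted p of 0.256 or more). *Zbtb16* passed the expression filter in tumors and not in cultures, where 9 of 11 samples held 0 counts.

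The edited gene, *Nr3c1*, still gave reads in every GR KO sample, which describes its RNA and checks nothing about the protein, because the counted 3′ tags may lie outside the edited site. In cultures it stood at 33.2, 30.0 and 35.6 CPM in parental DMSO, 39.5 and 33.4 in parental GC, 24.8, 21.0 and 16.4 in GR KO DMSO, and 20.9, 22.5 and 13.1 in GR KO GC. Parental control tumors held 63.4, 57.1, 44.9, 55.6 and 52.2 CPM, and GR KO control tumors 20.7, 27.3, 31.4, 31.8 and 23.5. *Nr3c1* RNA was thus lower in GR KO control tumors than in every parental control tumor (log2 fold change -1.02, edgeR adjusted p = 0.0313, 5 and 5 tumors). Under GC the genotypes overlapped: parental GC tumors held 53.4, 24.4, 48.2, 37.3 and 49.8 CPM and GR KO GC tumors 47.9, 21.7, 58.0, 32.5 and 49.4 (log2 fold change -0.02, edgeR adjusted p = 0.981). Tested directly, the GC effect on *Nr3c1* did not differ between genotypes at the call (log2 -0.99, edgeR adjusted p = 0.127, 20 tumors). In DMSO cultures GR KO was again below every parental sample without reaching the call (log2 fold change -0.67, edgeR adjusted p = 0.0840, 3 and 3 cultures).

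What does GC do to these genes in melanoma cells that have the receptor? *Klf9* rose and *Zbtb16* went from silence to clear expression. *Klf9* was 46.0, 28.6 and 39.4 CPM in the DMSO cultures and 161 and 125 in the GC cultures, so the groups were far apart. The change was 3.76-fold (log2 1.91, standard error 0.29, edgeR adjusted p = 0.00888, 2 GC and 3 DMSO cultures). Without GC culture 1 the change was log2 1.72 and the edgeR adjusted p 0.111, in a fit with 1 GC culture left and the spread taken from the other groups. The culture that remained, at 125 CPM, was still far above every DMSO culture. *Zbtb16* gave 0 counts in all 3 DMSO cultures and 137 and 221 counts in the GC cultures, or 9.45 and 9.99 CPM. That is at least 48.4-fold over the level of 3 counts, and since only 2 of 11 cultures passed the expression filter it has no test in that fit. Planned fits that kept the gene called it: without the filter edgeR gave log2 10.5 (adjusted p = 6.23e-06), and over all 31 samples 10.6 (0.00803), folds that have no upper bound against 0 counts. In both of these fits *Klf5* was not called.

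*Klf5* also rose with GC in parental cells, by less: 50.0, 54.3 and 47.8 CPM in DMSO and 77.3 and 79.6 in GC (1.55-fold, log2 0.63, edgeR adjusted p = 0.0236, 2 and 3 cultures). This size sits just over the threshold of 1.5, and the call was lost in 6 of 11 fits that left out 1 culture. *Klf6* moved as *Klf5* did, from 101, 123 and 122 CPM to 192 and 172, and *Klf13* from 292, 352 and 235 to 410 and 409, with no overlap in either gene and no call (log2 0.66 and 0.48, edgeR adjusted p = 0.0832 and 0.455), while DESeq2 called *Klf6* (log2 0.65, adjusted p = 0.0105). *Klf4* went the other way, from 247, 396 and 242 CPM to 164 and 168, again without overlap or call (log2 -0.83, edgeR adjusted p = 0.267). *Klf2*, *Klf3* and *Klf7* overlapped between the groups, with log2 changes of -0.32 to 0.24.

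Across the tested members, 2 of 8 were called in parental cells, both higher, against 110 of 12525 genes (0.878%). The members' median log2 change was 0.36, beside -0.00 for all genes. A list of 15 known GC-responsive genes gives the scale: 7 of its 13 tested genes were called, all higher (*Tsc22d3*, *Fkbp5*, *Per1*, *Sgk1*, *Cebpd*, *Mt1* and *Mt2*), with *Tsc22d3* at log2 3.09 (edgeR adjusted p = 2.28e-05, 2 and 3 cultures). Neither Sp factors (0 of 4 tested) nor the other BTB zinc-finger genes (0 of 26) had a call by edgeR or an unadjusted p below 0.05.

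**Figure D1:**
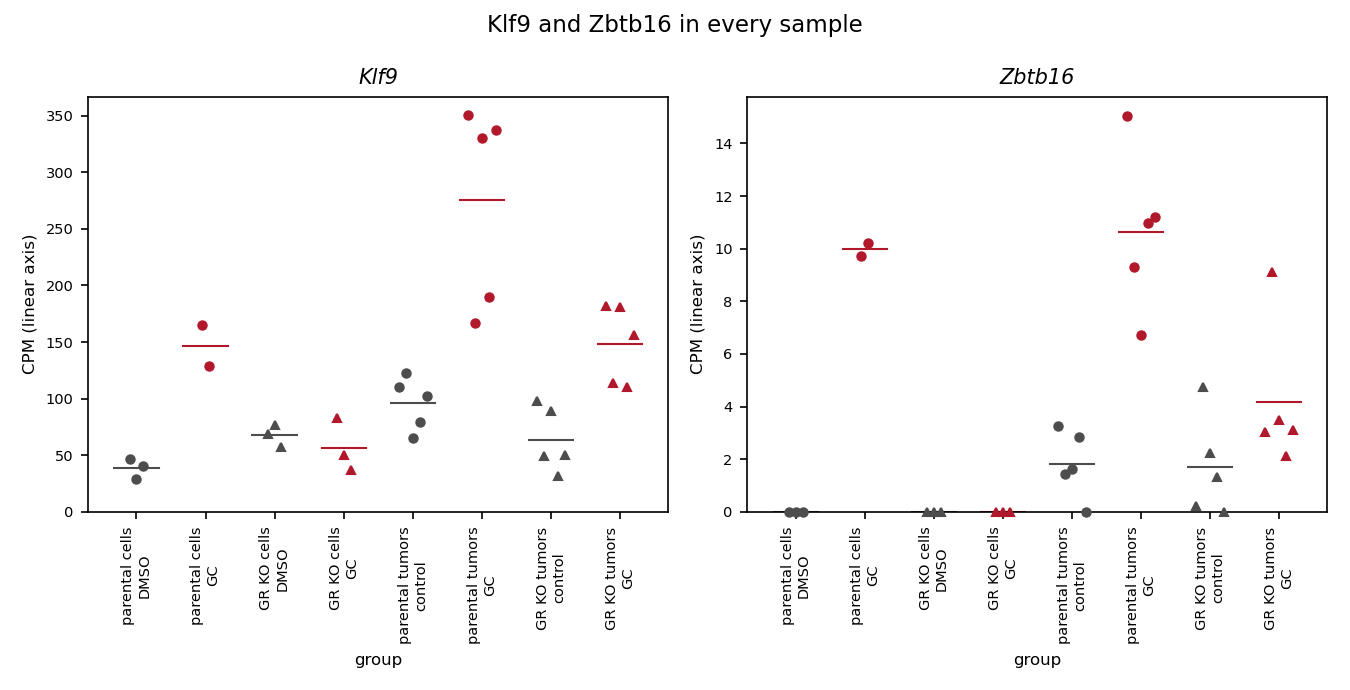
*Klf9* and *Zbtb16* in every sample, in CPM scaled over all 31 samples. Circles are parental and triangles GR KO samples, red marks GC, and bars are group means.

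Cells of the GR KO clone gave no called response. *Klf9* was 66.6, 74.3 and 56.6 CPM in DMSO and 81.1, 50.6 and 37.3 in GC, with overlapping groups (log2 -0.23, edgeR adjusted p = 0.976, 3 and 3 cultures). *Zbtb16* stayed at 0 counts in all 6 GR KO cultures. *Klf5* was 94.5, 98.9 and 96.6 CPM in DMSO and 105, 106 and 102 in GC, a small shift (log2 0.11, edgeR adjusted p = 0.976) in groups that overlap when all 31 samples are scaled together. In this comparison edgeR called 0 of 8 members and 0 of 12525 genes (0%), with 0 members and 237 genes at an unadjusted p below 0.05, and DESeq2 also called 0 members and 0 genes. A fit of all 31 samples called 0 members and 2 genes, both lower. Of the GC-responsive list, 0 of 13 genes were called or had an unadjusted p below 0.05.

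Whether the response differed between the genotypes was tested directly as the parental change minus the GR KO change. For *Klf9* the difference was log2 2.14 (standard error 0.39), which edgeR placed just outside the call (adjusted p = 0.0523, 11 cultures) and DESeq2 inside it (adjusted p = 0.000117). Without the filter edgeR called this difference (log2 2.15, adjusted p = 0.00131), and with replicate number as a block too. With the filter and no block edgeR called 0 of 8 members and 37 of 12525 genes (0.295%). At an unadjusted p below 0.05 there were 4 of 8 members and 1075 genes (8.58%), and DESeq2 called 1 member, *Klf9*, and 128 genes. From the GC-responsive list 5 genes were called, *Mt2* (3.70), *Tsc22d3* (3.14), *Per1* (3.00), *Mt1* (1.99) and *Sgk1* (1.30, all log2). For *Zbtb16* the same planned fits, without the filter and over all 31 samples, gave a difference of log2 10.5 and 10.6 that edgeR did not call (adjusted p = 1.00 in both). Its change in GR KO cultures is 0 counts over 0 counts and so undefined. Its GC level in parental cells was 9.45 and 9.99 CPM against 0 in every GR KO culture.

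The clone also differed from its parent before any GC was given. *Klf5* was higher in all 3 GR KO DMSO cultures than in all 3 parental ones (94.5, 98.9 and 96.6 against 50.0, 54.3 and 47.8 CPM), at log2 0.93 (standard error 0.10, edgeR adjusted p = 0.000243, 3 and 3 cultures). It was thus higher in GR KO cells without GC than in parental cells with it. *Klf9* (log2 0.79, edgeR adjusted p = 0.0901) and *Klf6* (0.44, 0.0684) also stood above every parental culture, *Klf13* stood below (-0.51, 0.0860), and *Klf2* was 77.4, 72.6 and 61.3 CPM against 49.6, 17.5 and 43.8 (0.93, 0.0772). The *Klf13* groups overlap when all 31 samples are scaled together, with GR KO up to 242 CPM and parental from 239. DESeq2 called *Klf9* (adjusted p = 0.0392) and *Klf2* (0.0228), and so did edgeR without the filter (0.0327 and 0.0185). Of the members 1 of 8 was called, beside 1030 of 12525 genes (8.22%), of which 757 were lower in GR KO. The members' median was 0.37 and that of all genes 0.01. These cultures also serve as the controls of the GC comparisons above, so the results share samples.

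In parental tumors GC again raised *Klf9*. Control tumors held 111, 121, 67.0, 79.1 and 106 CPM and GC tumors 345, 174, 328, 195 and 338, so the lowest GC tumor stood above the highest control. The change was 2.85-fold (log2 1.51, standard error 0.29, edgeR adjusted p = 0.00824, 5 and 5 tumors) and stayed called whichever of the 20 tumors was dropped. GC tumors 2 and 4 were well below the other 3.

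*Zbtb16* was 3.31, 1.44, 1.65, 2.81 and 0 CPM in parental control tumors and 14.8, 9.68, 6.67, 11.2 and 11.2 in GC tumors. Every GC tumor exceeded every control, yet edgeR did not call it (log2 2.55, standard error 0.85, adjusted p = 0.178). DESeq2 called it (adjusted p = 0.0407). The direction was that of the cultures, where the GC level was of similar height, 9.45 and 9.99 CPM.

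In parental tumors *Klf4* was 244, 249, 73.4, 208 and 83.5 CPM in control and 254, 684, 297, 397 and 300 in GC, barely without overlap (log2 1.17, edgeR adjusted p = 0.147, DESeq2 0.0411). *Klf2* tended lower, from 115, 83.7, 104, 135 and 154 CPM to 84.4, 34.5, 79.5, 59.8 and 97.4, with overlap (log2 -0.73, edgeR adjusted p = 0.172). *Klf6* (0.62), *Klf13* (0.57) and *Klf3* (0.85) leaned higher, while *Klf5* (0.19) and *Klf7* (-0.21) hardly moved, all with overlap and edgeR adjusted p of 0.193 to 0.733. EdgeR called 1 of 9 members in parental tumors, *Klf9*, beside 124 of 15919 genes (0.779%). At an unadjusted p below 0.05 there were 7 of 9 members and 2249 genes (14.1%), and the members' median was 0.62 beside 0.00 for all genes.

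**Figure D2:**
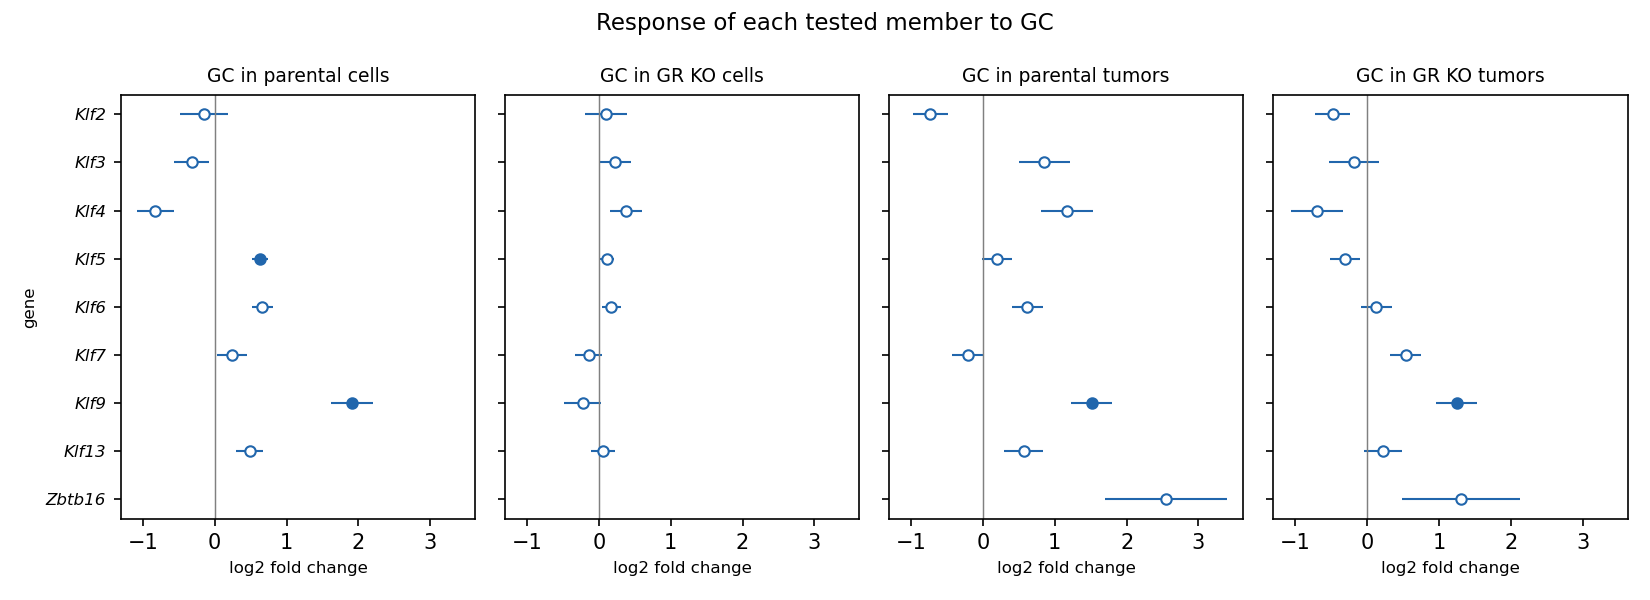
Log2 fold change with GC of each tested member in the 4 GC comparisons, with standard errors as bars. Filled points were called by edgeR, and *Zbtb16* did not pass the filter in cultures.

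In GR KO tumors, too, *Klf9* was higher with GC. Control tumors held 99.4, 50.2, 89.8, 30.2 and 50.8 CPM and GC tumors 184, 115, 182, 113 and 165, without overlap (2.37-fold, log2 1.25, standard error 0.28, edgeR adjusted p = 0.0134, 5 and 5 tumors). The call held in all 20 fits that left out 1 tumor, and was lost with genes detected as a covariate, chosen after seeing the data (log2 1.34, edgeR adjusted p = 0.0691). *Zbtb16* gave 0.220, 4.84, 2.25, 1.24 and 0 CPM in control and 3.08, 9.22, 3.51, 2.17 and 3.27 in GC, with overlap (log2 1.31, edgeR adjusted p = 0.343). Tumor 2 had the highest *Zbtb16* in both of these groups. GR KO control tumor 4, lowest in *Klf9* (30.2 CPM) and highest in genes detected, stood apart from the rest of its group: its chi-square per gene against them was 234 to 411, the highest of 50 replicate pairs, beside 68.8 to 146 among the others. Without it the *Klf9* change was log2 1.07 (edgeR adjusted p = 0.0126). *Klf4* leaned down, from 441, 560, 198, 176 and 443 CPM to 204, 304, 223, 247 and 145 (log2 -0.70, edgeR adjusted p = 0.240), a change that shrank to -0.17 (0.899) with that covariate. The other 6 tested members overlapped between the groups, at log2 -0.48 for *Klf2* to 0.54 for *Klf7*.

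EdgeR called 1 of 9 members in GR KO tumors, beside 1022 of 15919 genes (6.42%). The genome-wide count was unsteady, at 303 to 2411 when 1 tumor was left out, so it is not ranked against that of parental tumors (124, or 60 to 178). Of the members 2 of 9 had an unadjusted p below 0.05, beside 3893 genes (24.5%), and their median was 0.13 beside 0.05 for all genes. Part of the GC-responsive list was also higher: 4 of 14 tested genes were called higher (*Tsc22d3*, *Fkbp5*, *Per1* and *Mt2*) and 1 lower (*Cdkn1a*), against 6 higher and 0 lower in parental tumors. *Tsc22d3* rose by log2 2.34 in parental tumors (edgeR adjusted p = 1.61e-05) and 1.77 in GR KO tumors (0.000403). Which cells of a GR KO tumor carried these transcripts was not tested, and host cells with an intact receptor gene were part of every tumor.

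Did the response of tumors differ between genotypes? For *Klf9* the parental change exceeded the GR KO change by log2 0.27 (standard error 0.40, edgeR adjusted p = 0.743, 20 tumors), and for *Zbtb16* by 1.24 (standard error 1.16, 0.567). *Klf4* gave 1.87 (standard error 0.52, edgeR adjusted p = 0.0902), which DESeq2 called (0.0127). With genes detected as a covariate it was 1.33 (edgeR adjusted p = 0.255). EdgeR called 0 of 9 members and 31 of 15919 genes (0.195%), the latter running from 0 to 1284 when 1 tumor was left out. At an unadjusted p below 0.05 there were 3 of 9 members and 3192 genes (20.1%), and DESeq2 called 1 member, *Klf4*, and 817 genes. The difference for *Klf9* in cultures and that in tumors were not compared by a test, and the doses and routes were unlike.

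Compared at the same treatment, edgeR called no member between the genotypes in tumors, though some uncalled differences were large. In control tumors *Klf7* was lower in every GR KO tumor (69.0, 63.9, 95.7, 104 and 78.9 CPM) than in every parental one (131, 105, 109, 139 and 139), at log2 -0.60 without a call (edgeR adjusted p = 0.127). When all 31 samples are scaled together these groups overlap, with GR KO tumors up to 109 CPM and parental tumors from 106. With genes detected as a covariate the *Klf7* difference shrank to -0.26 (0.804). Without tumors 2 and 4 of both GC groups, a choice also made after seeing the data, it was called (-0.60, 0.0347). *Klf4* leaned higher in GR KO (log2 1.08, edgeR adjusted p = 0.107, DESeq2 0.0379). EdgeR called 0 of 9 members and 358 of 15919 genes (2.25%), 3 members and 3180 of the 15919 genes had an unadjusted p below 0.05, and DESeq2 called 1 member, *Klf4*, and 1004 genes. In GC tumors *Klf9* was lower in GR KO with overlap (log2 -0.86, edgeR adjusted p = 0.201) and *Zbtb16* too (-1.34, 0.545). There edgeR called 0 of 9 members and 101 of 15919 genes (0.634%), 2 members and 1816 genes (11.4%) had an unadjusted p below 0.05, and DESeq2 called 0 members and 289 genes. The members' medians were 0.13 and -0.38, beside -0.04 and 0.01 for all genes. These comparisons reuse the tumors of the GC comparisons.

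Markers of cell types in which these genes are known to act were summed in the same tumors. The 10 endothelial markers, relevant to *Klf2*, summed to 112, 99.2, 79.3, 110 and 83.7 CPM in parental control tumors and 67.3, 68.0, 52.5, 72.2 and 62.9 in parental GC tumors. In GR KO tumors the sums were 179, 166, 162, 176 and 178 in control and 90.5, 101, 85.9, 99.0 and 82.7 in GC. In parental tumors 0 of 10 of these genes were called lower (3 at an unadjusted p below 0.05) and in GR KO tumors 2 were, *Kdr* and *Egfl7*, while *Kdr* or *Egfl7* was the most abundant in most tumors. Summed endothelial marker RNA was thus lower with GC in both genotypes without overlap, and *Klf2* leaned lower in both. Between control tumors the mean sums were 96.7 CPM in parental and 172 in GR KO, while *Klf2* hardly differed (log2 0.13, edgeR adjusted p = 0.795). In DMSO cultures these markers still summed to means of 26.4 CPM in parental and 12.8 in GR KO cells. Which cells carried *Klf2* was not tested.

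The 10 T and NK cell markers, relevant to *Klf2* and *Zbtb16*, summed to 234, 179, 138, 214 and 108 CPM in parental control, 152, 142, 79.1, 170 and 114 in parental GC, 293, 274, 208, 379 and 191 in GR KO control, and 111, 163, 130, 82.1 and 86.0 in GR KO GC tumors. None was at 0 in any tumor, *Cd2* was most abundant in every control tumor, and 3 were called lower with GC in GR KO tumors (*Cd3d*, *Cd2* and *Lck*). In cultures 9 of the 10 were at 0 in every sample. Whether such cells carried the *Zbtb16* reads of the tumors was not tested. The 9 keratinocyte markers, relevant to *Klf4* and *Klf5*, summed to 2258, 2102, 2338, 2249 and 4304 CPM in parental control and 2806, 3299, 2596, 3085 and 3271 in parental GC tumors. In GR KO tumors the sums were 4896, 5310, 4344, 3133 and 3144 in control and 1829, 2122, 2546, 2755 and 2265 in GC. With GC, 2 of 9 were called higher in parental tumors, and 2 higher and 2 lower in GR KO tumors. Higher in parental and lower in GR KO tumors with GC on average, as *Klf4* was, were these sums, those of 9 macrophage and monocyte markers (means 5143 to 6765 CPM and 7422 to 5797) and those of 8 skeletal muscle markers (413 to 453 and 514 to 345). Which cells *Klf4* reads came from was not tested.

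Other marker sums moved in these tumors too. The 8 fibroblast markers ran from 6790 to 7505 CPM in parental control and 7740 to 10783 in parental GC tumors, and from 3706 to 6613 and then 7418 to 11382 in GR KO tumors, where 4 of 8 were called higher (*Col1a1*, *Col1a2*, *Col3a1* and *Pdgfra*). The 7 neutrophil markers ran from 23.8 to 1277 CPM in parental control and 11.6 to 40.5 in parental GC tumors, with *S100a8* and *S100a9* called lower, and from 179 to 1026 and then 51.7 to 231 in GR KO tumors. The 8 adipocyte markers ran from 135 to 197 and then 124 to 167 CPM in parental tumors, and from 94.8 to 247 and then 64.7 to 88.5 in GR KO tumors, with *Cfd* called lower in the latter. The GR KO tumors in which *Klf9* was higher with GC thus differed in several such sums as well, and which cells carried *Klf9* was not tested. Of 8 melanocytic markers, those of the labelled cell type, *Dct*, *Tyr*, *Mlana* and *Sox10* were at 0 in every culture. The 8 summed to means of 11.5 CPM in parental and 4.04 in GR KO DMSO cultures, beside 247 and 87.5 for the fibroblast markers.

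Of 8 genes known as endothelial targets of *Klf2* and *Klf4*, *Vcam1* was called higher with GC in both parental (log2 1.01, edgeR adjusted p = 0.00957) and GR KO tumors (1.23, 0.00142), and *Kdr* lower in GR KO (-1.32, 0.00567). None of 5 tested in parental cultures was called by edgeR, though 3 had an unadjusted p below 0.05, beside 1062 of all 12525 genes (8.48%). Of 8 known targets of *Klf15*, edgeR called 0 of 4 tested in parental cultures and 0 of 7 in tumors of either genotype. There were 2 at an unadjusted p below 0.05 in GR KO tumors, where 3893 of all 15919 genes (24.5%) were, and 0 in the others.

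Tumors and cultures of a genotype differed in many members, as they did in much of the genome. In parental samples 7 of 9 members were called beside 7595 of 16273 genes (46.7%), and in GR KO samples 4 of 9 beside 8917 of 16273 (54.8%). Higher in parental control tumors than in DMSO cultures were *Klf2* (log2 1.63), *Klf9* (1.31) and *Zbtb16*, and lower were *Klf3* (-1.31), *Klf5* (-1.13), *Klf13* (-0.97) and *Klf6* (-0.94). In GR KO samples *Klf2* (0.85) and *Zbtb16* were higher and *Klf5* (-1.93) and *Klf6* (-1.19) lower. Against cultures at 0 counts, the mean *Zbtb16* of control tumors was at least 9.20-fold higher in parental and 10.4-fold higher in GR KO samples, with 1 tumor of each group at 0 as well. The members' medians were -0.82 and -0.29, beside 0.37 and 0.33 for all genes. Tumors differ from cultures in cell types, vehicle and handling together, so no source of these shifts can be singled out.

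**Figure D3:**
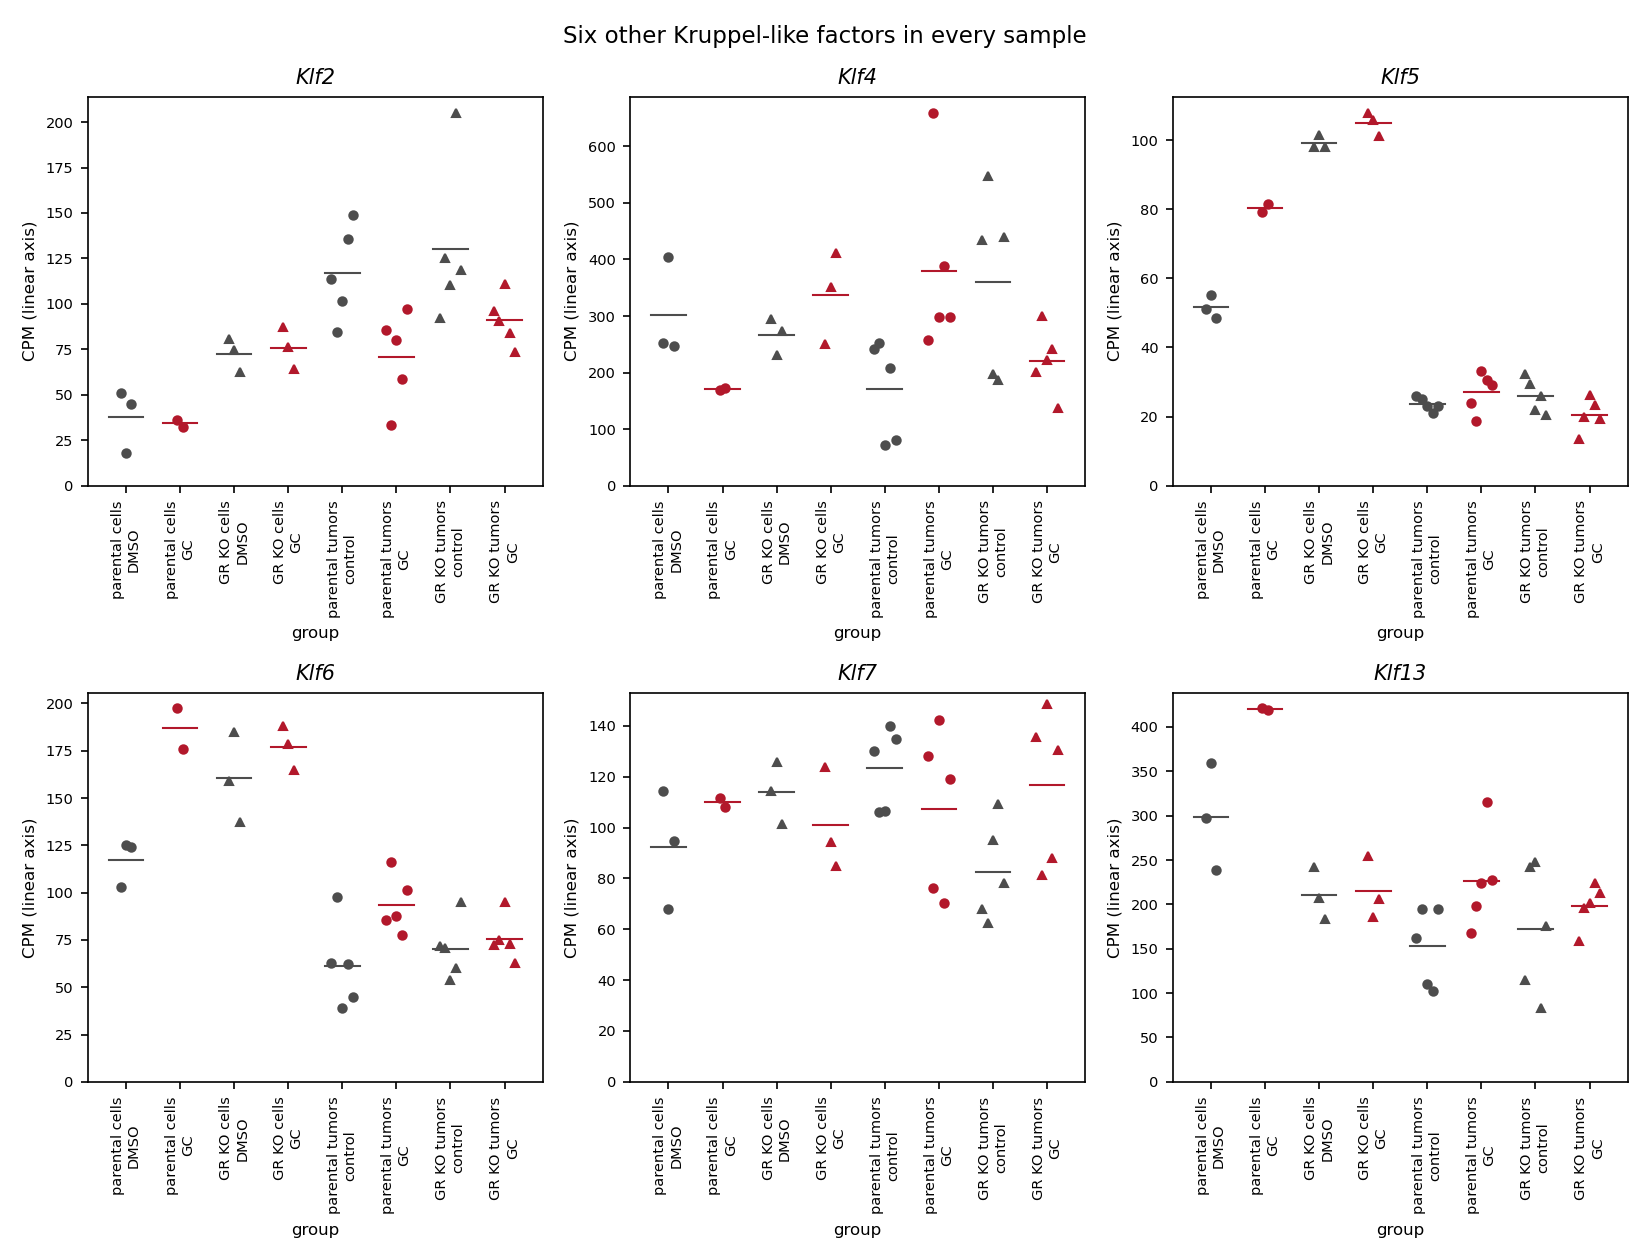
*Klf2*, *Klf4*, *Klf5*, *Klf6*, *Klf7* and *Klf13* in every sample, in CPM scaled over all 31 samples. Circles are parental and triangles GR KO samples, red marks GC, and bars are group means.

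Placing the 8 groups in order on a scale shared by all samples shows where neighbouring groups separate. *Klf9* ran from 38.8 CPM in parental DMSO cultures to 275 in parental GC tumors, 7.09-fold. Neighbours overlapped except at the step from parental control tumors (95.9) to parental GC cultures (147). The groups above that step were the GC groups other than GR KO cultures. Of these, GR KO GC tumors (from 111 CPM) still overlapped parental control tumors (up to 122). *Zbtb16* was 0 in the cultures other than parental GC, 1.70 in GR KO control tumors, 1.83 in parental control tumors and 4.17 in GR KO GC tumors. Its neighbours overlapped up to there, with parental GC cultures (9.97) and parental GC tumors (10.6) at the top. GR KO GC tumors (up to 9.10) lay below both parental GC cultures but overlapped parental GC tumors (from 6.71). For *Klf5* all tumor groups lay together at 20.5 to 27.0, and parental DMSO cultures (51.7), parental GC cultures (80.5) and the GR KO cultures (99.2 and 105) followed in separate steps. *Klf7* varied least, 1.49-fold from lowest to highest group mean, and no neighbouring groups of *Klf2*, *Klf4* or *Klf7* were apart.

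Outside the 10 members, 4 of 8 other Kruppel-like factors could be tested, and *Klf10* stood out in tumors. It fell with GC in parental tumors, from 18.5, 20.3, 29.9, 16.9 and 22.8 CPM to 9.95, 7.85, 7.82, 8.72 and 9.23 (log2 -1.32, edgeR adjusted p = 0.0153, 5 and 5 tumors). In GR KO tumors it was 12.1, 12.1, 16.3, 16.1 and 15.1 in control and 17.6, 13.9, 33.9, 13.7 and 35.1 in GC (0.67, 0.125). The difference between genotypes was -1.98 (edgeR adjusted p = 0.0330, 20 tumors), a call lost in 11 of 20 fits that each dropped a tumor. The difference was also lost with genes detected as a covariate (-1.75, edgeR adjusted p = 0.0840). The parental call was lost without control tumor 3 (29.9 CPM) and without tumors 2 and 4 of both GC groups (-1.27, 0.0732), a fit in which the change in GR KO tumors was called (1.00, 0.0147). In that last fit the difference was called (-2.27, edgeR adjusted p = 0.0290), as it was by DESeq2 with all tumors (adjusted p = 0.000406). With the covariate the parental fall was called (-1.37, edgeR adjusted p = 0.00419). In cultures *Klf10* showed no call with GC (log2 -0.28 in parental and -0.15 in GR KO cells, unadjusted p = 0.548 and 0.716). *Klf9* and *Klf10*, both from the branch of the family that recruits Sin3A, thus went opposite ways in parental tumors. *Klf16* was also lower in every parental GC tumor (1.52 to 5.67 CPM) than in every parental control tumor (5.79 to 14.8), and overlapped between the GR KO tumor groups. *Klf10* was higher in GR KO than in parental GC tumors (DESeq2 log2 1.37, adjusted p = 0.000190, edgeR without the filter 1.38, 0.0131). *Klf8* was higher in GR KO than in parental DMSO cultures (DESeq2 log2 3.01, adjusted p = 1.73e-05, edgeR without the filter 3.00, 0.00350). Between GC tumors DESeq2 called *Klf8* higher in GR KO too (2.30, 0.00439), and edgeR without the filter did not (2.29, 0.124).

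Genes whose levels ran with *Zbtb16* and *Klf9* were in part known GC targets. After centring tumors and cultures separately, the 31 samples gave r = 0.87 for *Zbtb16* with *Mt2*, 0.84 with *Sgk1* and 0.84 with *Tsc22d3*, the highest of 12278 genes. For *Klf9* the highest were *Cenpe* (0.84), *Tsc22d3* (0.82), *9430020K01Rik* (0.81) and *Per1* (0.81). These points share treatment and group, and when each group was centred on its own none of those genes remained among the 5 highest of either. Among members the closest pairs were *Klf3* with *Klf4* (r = 0.80) and *Klf9* with *Zbtb16* (0.69), and the most opposed *Klf4* with *Klf7* (-0.64), each over 31 samples.

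Some of the spread inside groups ran with the number of genes detected. At an equal depth of 15528066 reads, parental GC tumors 2 and 4 detected 15794 and 15799 genes against 16668 to 16916 in the other 3, and GR KO GC tumors 2 and 4 detected 15561 and 15155 against 16451 to 16655. Parental control tumors detected 15578 to 16762. GR KO control tumors detected the fewest on average, 13399, 14794, 15142, 16780 and 14265, a mean of 14876 against 16095 in GR KO GC tumors, so genes detected moved with treatment in that comparison. The same 4 GC tumors were the lowest of their groups in *Klf9*, *Klf7* and *Nr3c1*. Over 20 tumors, centred by group, r with genes detected was 0.66 for *Klf7*, 0.64 for *Nr3c1*, 0.55 for *Klf2*, -0.61 for *Klf3*, -0.45 for *Klf4*, -0.12 for *Klf9* and 0.23 for *Zbtb16*. With that covariate the *Klf9* change in GR KO tumors was no smaller (log2 1.34 against 1.25) though its call was lost, and the call in parental tumors held (1.53, edgeR adjusted p = 0.00412). In parental tumors *Klf2* (-0.83, 0.0317) and *Klf4* (1.16, 0.0486) were then called as well. Other changes shrank or turned, none of them called: in GR KO tumors *Klf3* went from -0.18 to 0.57 and *Klf7* from 0.54 to 0.19, and between genotypes in control tumors *Klf3* went from 0.50 to -0.34 and *Klf4* from 1.08 to 0.47. The covariate turned the order of the genome-wide counts around, to 526 genes in parental and 217 in GR KO tumors. Whether this reflects the tissue sampled or the library was not tested.

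The promoters of the members were read for the sites such factors bind, because *Klf9* is the member called in most GC comparisons and *Klf13* and *Klf4* differ from it in response. Promoters come from RefSeq on mouse build GRCm38.p6, and 8 of the 10 members were matched, not *Klf5* or *Zbtb16*. The core of the GC response element, ACANNNTGT on either strand, was found in 0 of 8 members, 6.85% of all 32841 promoters and 4 of 23 promoters of the GC-responsive list (17.4%). The half-site AGAACA was found in 0 of 8, 19.0% of all and again 4 of 23 of that list (17.4%). Several of the 23 promoters belong to *Sgk1*, and these hold most of the list's half-site matches and some of its core matches. CACCC (or GGGTG) was found in 6 of 8 members, 57.5% of all promoters and 43.5% of the list, and the GC box GGGCGG (or CCGCCC) in 7 of 8, 35.7% and 60.9%, both motifs added after the first results. These shares are over whole promoter records. In the 250 upstream bases alone, all promoters held the core in 5.84%, the half-site in 16.1%, CACCC in 52% and the GC box in 32.7%. The counts for members and for the GC-responsive list were the same there. The 250 bases upstream of *Klf9* (chr19:23140976-23141225, plus strand), *Klf13* (chr7:63938916-63939165, minus strand) and *Klf4* (chr4:55532476-55532725, minus strand) follow, with capitals marking CACCC and GC boxes. *Klf9* has 1 CACCC box and no GC box, *Klf13* has 1 CACCC and 3 GC boxes, and *Klf4* has 4 GC boxes. Distant sites were not read, and a match describes the sequence alone.
Klf9: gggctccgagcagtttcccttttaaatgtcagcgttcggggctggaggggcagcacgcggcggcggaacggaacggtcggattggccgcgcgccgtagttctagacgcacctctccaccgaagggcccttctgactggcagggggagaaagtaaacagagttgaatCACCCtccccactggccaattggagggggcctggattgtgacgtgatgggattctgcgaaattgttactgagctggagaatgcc
Klf13: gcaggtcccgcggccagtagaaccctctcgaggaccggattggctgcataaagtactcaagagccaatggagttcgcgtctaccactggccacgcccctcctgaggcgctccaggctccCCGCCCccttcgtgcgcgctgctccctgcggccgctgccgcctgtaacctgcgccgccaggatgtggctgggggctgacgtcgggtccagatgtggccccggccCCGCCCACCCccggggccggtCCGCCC
Klf4: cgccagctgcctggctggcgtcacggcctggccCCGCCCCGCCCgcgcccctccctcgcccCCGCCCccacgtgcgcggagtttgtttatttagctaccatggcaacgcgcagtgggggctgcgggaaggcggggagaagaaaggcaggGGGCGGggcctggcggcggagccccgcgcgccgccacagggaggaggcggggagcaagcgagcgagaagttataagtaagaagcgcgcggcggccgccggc

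Position in the genome adds a limit for some members. The 3′ end of *Klf7* overlaps *Gm26649* on the opposite strand, which had 0 counts in all 31 samples, and the start of *Klf3* overlaps *Gm20033*, also opposite, with at most 68 counts. The strand setting of the counting was not named. A general statement by the authors that defaults were used would mean counting without regard to strand, and reads of such overlapping genes cannot then be told apart where they coincide.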

How the data were processed

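The values used are the raw count table the authors deposited, in which 3′-end reads were trimmed, aligned to the mouse genome and counted per gene; here the counts were analysed again with R 4.3.3, edgeR 4.0.16, limma 3.58.1 and DESeq2 1.42.0. Members were named genes, taken where the gene symbol equals the name, and the members and lists were chosen with earlier results of these data known. Tumors and cultures were filtered separately, keeping a gene that reached 0.5 CPM in 3 or more samples. TMM scaling and the edgeR quasi-likelihood test were fitted to the 4 groups of an experiment together, and to all 31 samples for tumors against cultures. P-values were adjusted by Benjamini-Hochberg over all tested genes. A call needed an adjusted p below 0.05 and a fold change of at least 1.5. The alternatives were DESeq2, other size factors, no or a stricter filter, a threshold of 2-fold, fits of only the groups compared or of all samples, replicate number as a block, and leaving out each sample. The code was tested on simulated data. Labels put all 11 cultures on the same date, with letters A to C shared across groups, and do not say whether cultures were grown separately, so p-values measure the spread between samples. Standard errors were calculated back from the edgeR test, as the absolute log2 fold change over the square root of its F statistic. The floor of 3 counts covers counting error only.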

Additional observations from a re-analysis of the deposited data

Results flagged for a closer look

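Values set apart from their group, by the gap to the nearest value over the group's range, were looked for in 43 groups of values. There were 2 such values. At the threshold used, chance alone gives about 0.05 of the groups if values within a group are normally distributed. *Klf15* was at 0.193 CPM in GR KO control tumor 4, while the other 4 tumors of that group held 0 counts. *Zbtb16* was at 9.22 CPM in GR KO GC tumor 2, while the others held 2.17 to 3.51 CPM. Both samples were kept.

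A GC effect that differed between genotypes by edgeR was looked for in 33 genes. In cultures the parental change exceeded the GR KO change by log2 3.14 for *Tsc22d3*, 3.00 for *Per1*, 1.30 for *Sgk1*, 1.99 for *Mt1* and 3.70 for *Mt2*. In tumors the difference was -1.98 for *Klf10*, with a called fall in parental tumors beside an uncalled change in overlapping GR KO groups (0.67, edgeR adjusted p = 0.125), a difference lost in 11 of 20 fits that each dropped a tumor, and 1.90 for *Mt1*. The number of genes called for the difference fell as low as 0 in those fits, so the *Mt1* call was not kept in all of them.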

How the results depend on the processing

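Counts of called members moved by more than 1.5-fold under some alternatives, and why was not tested. GC in parental cells had 2 members called, and 1 at a threshold of 2-fold, with replicate number as a block, or in a fit of only the 2 groups, with 0 to 2 when a sample was left out. DESeq2 called 3 there, *Klf5*, *Klf6* and *Klf9*. Without the filter, and over all 31 samples, the count stayed 2 but *Zbtb16* took the place of *Klf5*. The difference in cells had 0 and gained 1, *Klf9*, by DESeq2, without the filter or with the block (0 to 1 when a sample was left out). GC in parental tumors had 1, against 3 by DESeq2 (*Klf4*, *Klf9* and *Zbtb16*) and 3 with genes detected as a covariate (*Klf2*, *Klf4* and *Klf9*; 1 to 2 when a sample was left out). GC in GR KO tumors had 1, against 0 with that covariate and 2 without tumors 2 and 4 of both GC groups (1 to 1 when a sample was left out); both of these were chosen after seeing the data. The difference in tumors had 0 and gained 1, *Klf4*, by DESeq2, with the block or in a fit of all 31 samples (0 to 1). GR KO against parental control tumors had 0, against 1 by DESeq2, 1 in the fit of all samples and 1 without those tumors (0 to 1). GR KO against parental DMSO cultures had 1, against 0 at 2-fold, 3 by DESeq2 and 3 without the filter (*Klf2*, *Klf5* and *Klf9* in both) and 2 in the fit of only the 2 groups (1 to 2). Tumors against cultures had 7 to 8 in parental and 3 to 5 in GR KO samples when a sample was left out. Genome-wide counts moved further, given as edgeR, DESeq2 and range when a sample was left out: GC in parental cells 110, 251, 31 to 132; GC in GR KO cells 0, 0, 0 to 0, with 2 over all 31 samples; difference in cells 37, 128, 17 to 43; GC in parental tumors 124, 378, 60 to 178; GC in GR KO tumors 1022, 1779, 303 to 2411; difference in tumors 31, 817, 0 to 1284; GR KO against parental control tumors 358, 1004, 61 to 1762; against parental GC tumors 101, 289, 40 to 149; and DMSO cultures 1030, 1424, 594 to 1175. With genes detected as a covariate the tumor counts were 526 for GC in parental, 217 for GC in GR KO and 15 for the difference. For GR KO against parental they were then 51 in control tumors and 362 in GC tumors. GR KO was a single clone, and parental GC cultures numbered 2.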
